A study of Mus musculus with 2 samples.

Results

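The 8 mature microRNAs described here are arms of 5 hairpins, Mir532, Mir188, Mir362, Mir501 and Mir500, that lie together in an intron of the mouse gene *Clcn5*. They were taken by exact name from both deposited tables, and all 8 names were found among the 1915 microRNAs of experiment 2 and 6 of the 8 among the 484 of experiment 1. The set was chosen by the fall of mmu-miR-501-3p in the ethanol-fed library of both experiments, so the ethanol against pair-fed values below are a description and carry no test. The question was whether the neighbours of miR-501-3p in the same intron moved with it.

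Livers came from female C57BL/6 wild-type mice of 8 to 10 weeks, and all animals first took the control Lieber-DeCarli liquid diet for 5 days. Ethanol-fed mice then had 5% (v/v) ethanol in this diet over 10 days and a gavage of 6 g/kg ethanol on day 16. Pair-fed mice had the isocaloric diet and a gavage of dextrin-maltose, and livers of both groups were taken 9 h after the gavage. Each of the 2 tables holds 1 ethanol-fed and 1 pair-fed library, while the labels list 1 sample per diet for these 4 libraries. The labels do not say how many animals stand behind a library, or whether the 2 tables come from different animals. No spread between animals can therefore be given, and every comparison is between libraries.

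A microRNA hairpin is cut from its primary transcript by Drosha and then opened by Dicer into a 5p and a 3p arm. An arm that is loaded into an Argonaute protein pairs with messenger RNAs mainly through its seed, bases 2 to 8, and the other arm is mostly degraded. Hairpins in an intron are usually transcribed with the host gene, but the amount of each mature arm also depends on how well its hairpin is cut and how long the arm lasts. *Clcn5* encodes an endosomal chloride and proton exchanger that is best known from the kidney. Its messenger RNA was not measured in these small RNA libraries.

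In GRCm38, *Clcn5* (ENSMUSG00000004317.14) spans chrX:7153810-7319358 on the minus strand. The 5 hairpins cover 10815 bp of it, from chrX:7237683 to chrX:7248497, on the same strand as the gene. All 5 lie in 1 intron of 103648 bp (chrX:7213011-7316658), which is intron 3 of the 15-exon protein-coding transcript ENSMUST00000115746.7. This holds for 3 of the 5 annotated *Clcn5* transcripts, and none of the 5 transcripts has an exon over a hairpin. In the order of transcription, Mir188 starts 441 bp after Mir532, Mir362 after 6451 bp, Mir501 after 7146 bp and Mir500 after 10723 bp. Within 50000 bp on either side, no other microRNA gene was found in the RefSeq table. Mir362 and Mir501 are thus close neighbours, with 630 bp between them, whereas 5942 bp separate Mir188 from Mir362.

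The mature sequences show which members can be told apart by their reads. RefSeq (GRCm38.p6) gave the sequence of 7 of the 8 members, mmu-miR-532-5p being the exception, and they are printed 5′ to 3′ with the seed in capitals. The first pair shares a seed and the others each have their own.
mmu-miR-501-3p (chrX:7241270-7241291): aAUGCACCcgggcaaggauuug
mmu-miR-500-3p (chrX:7237695-7237716): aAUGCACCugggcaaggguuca
mmu-miR-362-3p (chrX:7241984-7242005): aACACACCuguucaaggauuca
mmu-miR-362-5p (chrX:7242019-7242042): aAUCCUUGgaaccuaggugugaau
mmu-miR-501-5p (chrX:7241307-7241328): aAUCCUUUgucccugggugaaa
mmu-miR-188-5p (chrX:7248031-7248051): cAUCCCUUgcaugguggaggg
mmu-miR-532-3p (chrX:7248419-7248440): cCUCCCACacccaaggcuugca

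Counted from base 1 at the 5′ end, miR-501-3p and miR-500-3p are identical at 18 of 22 bases, and the differences from miR-501-3p to miR-500-3p are C9U, A18G, U21C and G22A. They have the same seed, AUGCACC, but a read that covers base 9 without error tells them apart. Whether mismatches were allowed when reads were assigned is not given. miR-362-3p is identical to miR-500-3p at 17 of 22 bases but has another seed, ACACACC. The Mir501 hairpin is shown because miR-501-3p gave the selection, with both of its mature arms in capitals, the 5p arm first.
Mir501 hairpin (chrX:7241243-7241351, minus strand): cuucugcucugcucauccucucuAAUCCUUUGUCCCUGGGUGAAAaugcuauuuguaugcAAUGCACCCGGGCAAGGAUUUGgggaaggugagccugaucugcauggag

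Experiment 1 holds whole reads on microRNAs, 4170601 with pair-feeding and 4311802 with ethanol. Experiment 2 holds reads per 1000000 reads on microRNAs (RPM), whose low values rise in even steps of 0.0925 RPM (pair-feeding) and 0.0924 RPM (ethanol). Taking a step as 1 read, 10812821 and 10820818 reads were estimated. The deposited values are rounded, and of those under 60 RPM 20.3% and 15.8% came within 0.01 of a whole number of steps. That tolerance is finer than the rounding, so these shares cannot show whether whole reads were recovered. The reads and intervals given for experiment 2 are therefore estimates. No value of experiment 2 lies between 0 and 0.92 RPM, which is 10 steps, so a microRNA listed at 0 there can have had up to 9 reads. RPM were computed for experiment 1 in the same way, and a count of 0 would allow up to 0.719 RPM in its pair-fed library. Brackets after an RPM value or a ratio give the 95% interval for counting error alone. PCR copies were not told apart, so the true error is larger.

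mmu-miR-532-5p and mmu-miR-501-3p held most reads of the cluster in experiment 1, and miR-532-5p alone held 86.8% with pair-feeding and 89.0% with ethanol in experiment 2. miR-532-5p, the predominant arm of the first hairpin, had 153 RPM with pair-feeding (142 to 166) and 160 RPM with ethanol (148 to 172) of experiment 1. In experiment 2 it had 612 RPM (597 to 627) and 599 RPM (585 to 614). It was the most abundant member in all 4 libraries, at rank 79 and 75 among all microRNAs in experiment 1 and rank 60 and 61 in experiment 2, pair-fed first.

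miR-501-3p, which is known from neurons as a regulator of glutamate receptors, came second in all 4 libraries. It had 438 reads, or 105 RPM (95.4 to 115), with pair-feeding and 172 reads, or 39.9 RPM (34.2 to 46.3), with ethanol in experiment 1. In experiment 2 it had 39.9 RPM (36.2 to 43.8) and 32.4 RPM (29.1 to 36.0). The pair-fed library of experiment 1 stood above the other 3, which lay between 32.4 and 39.9 RPM.

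mmu-miR-362-3p and mmu-miR-362-5p came next in experiment 2, and their intervals overlapped in each library. miR-362-3p had 22.8 RPM (20.1 to 25.9) with pair-feeding and 15.9 RPM (13.6 to 18.5) with ethanol. miR-362-5p, a reported repressor of the deubiquitinase gene *Cyld*, had 19.8 RPM (17.2 to 22.6) and 14.8 RPM (12.6 to 17.3). In experiment 1 the 2 arms were near the limit of detection, with 5 and 4 reads for miR-362-3p and 5 and 7 reads for miR-362-5p for the pair-fed and then the ethanol-fed animals.

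mmu-miR-532-3p and mmu-miR-500-3p were rarer still. miR-532-3p had 8.69 RPM (7.03 to 10.6) with pair-feeding and 7.21 RPM (5.70 to 9.00) with ethanol in experiment 2, below both arms of Mir362. In experiment 1 it had 6 and 8 reads. miR-500-3p, the seed partner of miR-501-3p, had 1.94 RPM (1.20 to 2.97) and 2.22 RPM (1.42 to 3.30) in experiment 2, and 6 and 4 reads in experiment 1. The 4 rarest listed members of experiment 1 could not be ranked, since all their intervals overlapped.

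mmu-miR-188-5p, the only arm of Mir188 with a value above 0, was not listed in experiment 1. In experiment 2 it was listed at 0 with pair-feeding and at 1.39 RPM with ethanol, which is 15 reads. mmu-miR-501-5p was listed at 0 in both libraries of experiment 2 and was not in the table of experiment 1. The remaining arms of the 5 hairpins, miR-188-3p and miR-500-5p, had the same pattern as miR-501-5p. No arm of miR-660, which was also looked for, was listed in either table.

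**Figure D1:**
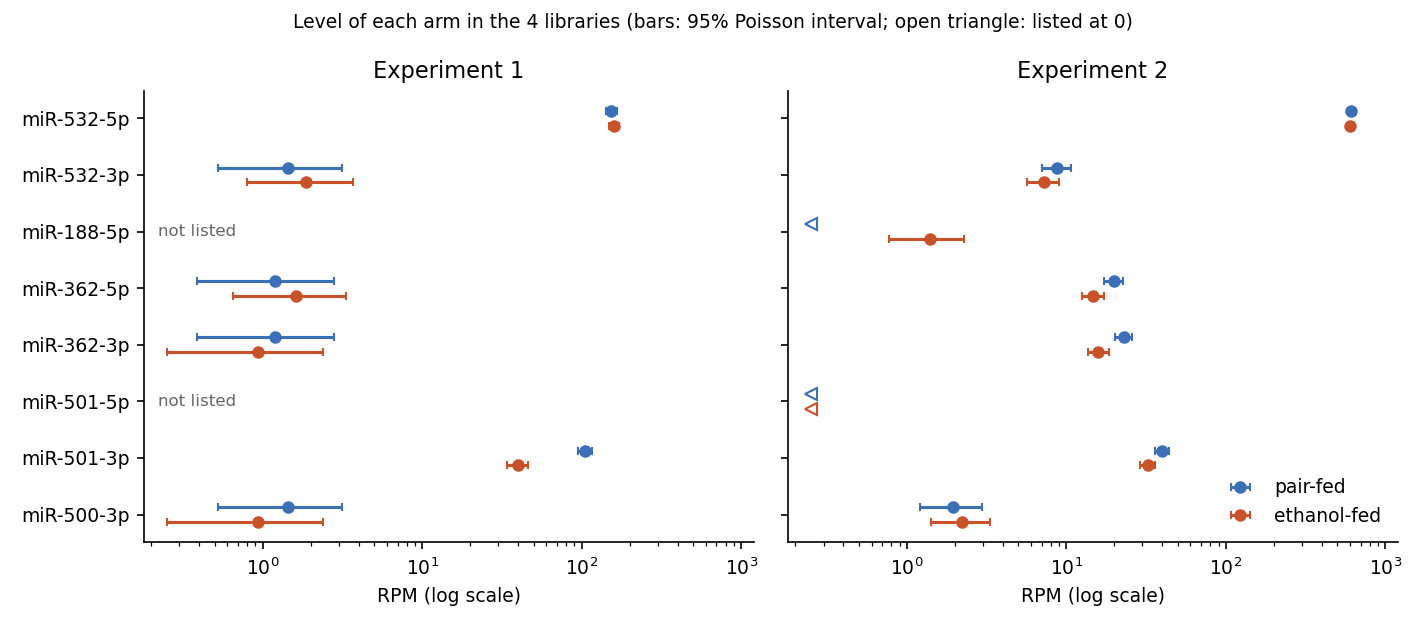
Level of each member in RPM (horizontal axis, log scale) with pair-feeding (blue) and with ethanol (orange), for experiment 1 (left) and experiment 2 (right), with 95% Poisson intervals as bars and open triangles for values listed at 0. The blue and orange points of miR-501-3p lie apart in experiment 1, at 105 and 39.9 RPM, and nearer each other in experiment 2, at 39.9 and 32.4 RPM. Those of miR-532-5p lie together in each panel.

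Within a hairpin the 2 arms come from the same molecules and library, so their proportion does not depend on scaling. The 5p arm held 99.1% of Mir532 reads with pair-feeding in experiment 1 (exact binomial interval 97.99% to 99.7%) and 98.9% with ethanol (97.8% to 99.5%). In experiment 2 it held 98.6% (98.3% to 98.9%) and 98.8% (98.5% to 99.1%), so the arm preference of Mir532 was close in all 4 libraries. The arms of Mir362 were near balance in experiment 2, where the 5p arm held 46.4% of reads with pair-feeding (41.8% to 51.1%) and 48.2% with ethanol (42.7% to 53.7%). Mir501 was one-sided the other way. With up to 9 reads of miR-501-5p behind a listed 0, the 3p arm held at least 97.95% of reads with pair-feeding and at least 97.5% with ethanol in experiment 2.

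miR-501-3p, the basis of the selection, was 2.63-fold lower with ethanol in experiment 1. Its RPM with ethanol divided by that with pair-feeding, called the ratio from here on, was 0.380 (0.317 to 0.454). In experiment 2 the ratio was 0.814 (0.705 to 0.939). These intervals cover counting error alone, and there is no replicate within an experiment against which to judge either value.

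miR-532-5p, from the first hairpin of the same intron, had ratios near 1. Its ratio was 1.04 (0.934 to 1.16) in experiment 1 and 0.979 (0.946 to 1.01) in experiment 2. Each interval lies wholly above that of miR-501-3p, which was chosen by its fall, in the same libraries. In experiment 2 the separation is narrow, with 0.946 as the lower end against 0.939 as the upper end for miR-501-3p. This arm has the most reads of the cluster, so that in experiment 2 a change of more than a few percent would have exceeded the counting error.

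Both arms of Mir362, the hairpin nearest to Mir501, were lower with ethanol in experiment 2. The ratio was 0.696 for miR-362-3p (0.569 to 0.849) and 0.747 for miR-362-5p (0.605 to 0.921). Added together, the reads of Mir362 gave 0.720 (0.623 to 0.830), an interval that overlaps that of miR-501-3p and lies below that of miR-532-5p. In experiment 1 the sum of both arms was 10 reads with pair-feeding and 11 with ethanol, with a ratio of 1.06 (0.410 to 2.79). At this depth a ratio like that of miR-501-3p in experiment 1 lies just outside the interval, and one like that of Mir362 in experiment 2 lies well within it.

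The rarer members gave wide intervals that include 1. miR-532-3p had a ratio of 1.29 (0.392 to 4.51) in experiment 1 and 0.830 (0.606 to 1.13) in experiment 2. miR-500-3p had 0.645 (0.134 to 2.72) and 1.14 (0.609 to 2.16). miR-188-5p has no ratio, because its pair-fed value is listed at 0 and can stand for up to 9 reads against 15. The lower end for miR-532-3p in experiment 1, 0.392, lies just above the miR-501-3p ratio of 0.380 and within its interval (0.317 to 0.454). Whether these members followed miR-501-3p was not detectable at this depth.

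**Figure D2:**
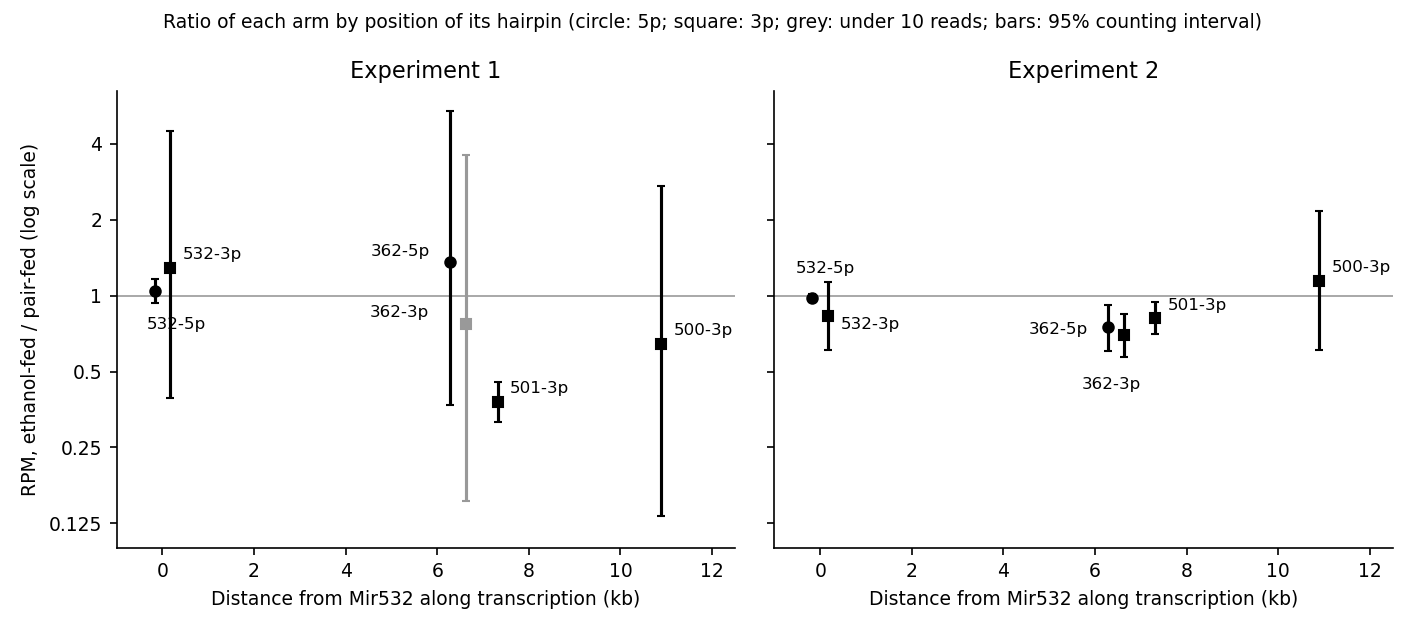
Ratio of RPM, ethanol divided by pair-feeding (vertical axis, log scale), of each arm with reads in both libraries, placed by the distance of its hairpin from Mir532 along the direction of transcription in kb; circles are 5p arms, squares 3p arms, bars 95% counting intervals, and grey marks fewer than 10 reads in the libraries together. miR-501-3p is the only arm of experiment 1 whose bar does not cross 1. In experiment 2 both arms of Mir362 and miR-501-3p lie below 1 with bars that do not cross it. miR-532-3p at 0.830 and miR-532-5p at 0.979 also lie below 1 there, with bars that cross it. The share of all microRNAs whose bar does not cross 1 was not computed, so these bars do not set the members apart.

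To set the members against all microRNAs, the log2 ratio was taken after adding 1 read to each library, wherever the libraries of an experiment summed to 10 reads or more. In experiment 1, 5 of the 6 listed members had this many reads. A log2 ratio under 0 was found for 2 of the 5, miR-501-3p and miR-500-3p, beside 51.3% of all 302 microRNAs. At least 2-fold lower was 1 of the 5, miR-501-3p, beside 12.9% of all, and 0 of the 5 were at least 2-fold higher, beside 12.6%. The median log2 ratio of the 5 was 0.06, and that of the 302 was -0.01. The place of miR-501-3p in these counts was fixed by the selection. Without it, 1 of 4 members was under 0 and 0 of 4 were at least 2-fold lower, with a median of 0.19.

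In experiment 2, 7 of the 8 members had at least 10 reads. A log2 ratio under 0 was found for 5 of the 7, beside 49.7% of all 469 microRNAs. At least 2-fold lower were 0 of the 7, beside 15.1% of all, and at least 2-fold higher was 1, miR-188-5p, beside 10.7%. Its log2 ratio of 4.0 rests on a value listed at 0. A microRNA listed at 0 in 1 library always passed 2-fold, since the other library then had at least 10 reads. Over all microRNAs, 31 of the 50 higher were listed at 0 with pair-feeding alone. Of the 71 lower, 36 were listed at 0 with ethanol alone. The median log2 ratio of the 7 was -0.27, and that of the 469 was 0.0026. Without miR-501-3p, 4 of 6 members were under 0, with a median of -0.15.

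Among the 158 microRNAs of experiment 1 with at least 100 reads, 5.7% were at least 2-fold lower. miR-501-3p, with a log2 ratio of -1.39, was 1 of the 4 lowest of them. Among the 298 such microRNAs of experiment 2, 8.05% were at least 2-fold lower. There miR-501-3p had a log2 ratio of -0.30, and 83 of the 298 were as low or lower, itself included. Because miR-501-3p was chosen by its fall in both experiments, these places are a description only.

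**Figure D3:**
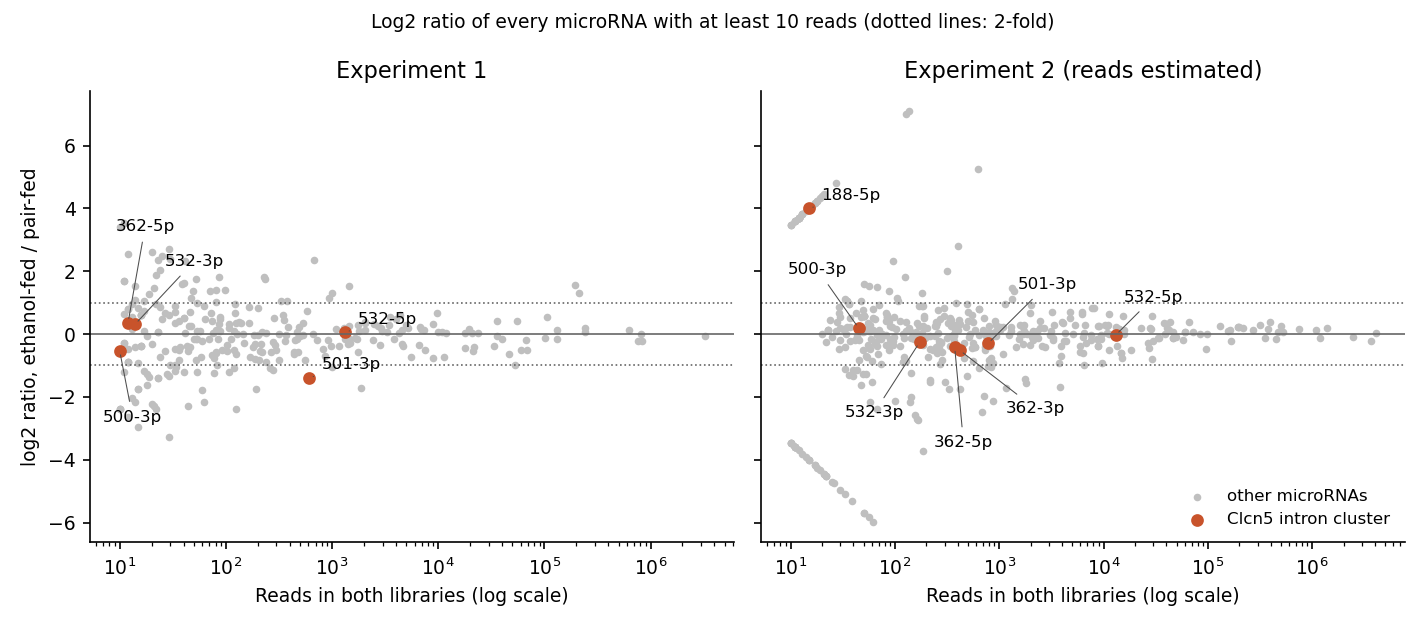
Log2 ratio, ethanol divided by pair-feeding (vertical axis), against the reads in both libraries (log scale) for each microRNA with at least 10 reads, cluster members in orange and others in grey; dotted lines mark 2-fold. In experiment 1 miR-501-3p lies below the lower line at 610 reads, in experiment 2 the 6 members other than miR-188-5p lie between the lines, and the slanting rows of points at the left of experiment 2, miR-188-5p among them, are microRNAs listed at 0 in 1 library.

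The proportion of miR-501-3p to miR-532-5p in a library needs no total. miR-501-3p was chosen by its fall, so a lower proportion beside a steady neighbour follows from the selection. For each 100 reads of miR-532-5p there were 68.4 reads of miR-501-3p with pair-feeding in experiment 1 (60.5 to 77.4) and 24.96 with ethanol (21.0 to 29.5). In experiment 2 there were 6.52 (5.90 to 7.19) and 5.42 (4.85 to 6.03). The ethanol-fed library was lower in both experiments, but the intervals of experiment 2 overlap, and the gap between the experiments is larger than that between the diets.

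As a share of the reads of all listed members, miR-501-3p fell from 39.8% (36.9% to 42.8%) to 19.5% (16.9% to 22.2%) in experiment 1. miR-532-5p held 58.2% and 77.9% of the same reads. In experiment 2, miR-501-3p held 5.66% (5.15% to 6.20%) and 4.82% (4.34% to 5.34%), and miR-532-5p 86.8% and 89.0%.

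The summed level of the members was 264 RPM with pair-feeding and 205 RPM with ethanol in experiment 1, a ratio of 0.777 (0.711 to 0.850). miR-501-3p lost 65.1 RPM, more than the 58.7 RPM lost by the sum. Without miR-501-3p the ratio of the sum was 1.04 (0.935 to 1.16). In experiment 2 the sum was 705 and 673 RPM, with a ratio of 0.955 (0.925 to 0.986), and of the 31.7 RPM lost 7.42 RPM came from miR-501-3p. Without it the ratio was 0.963 (0.932 to 0.996).

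**Figure D4:**
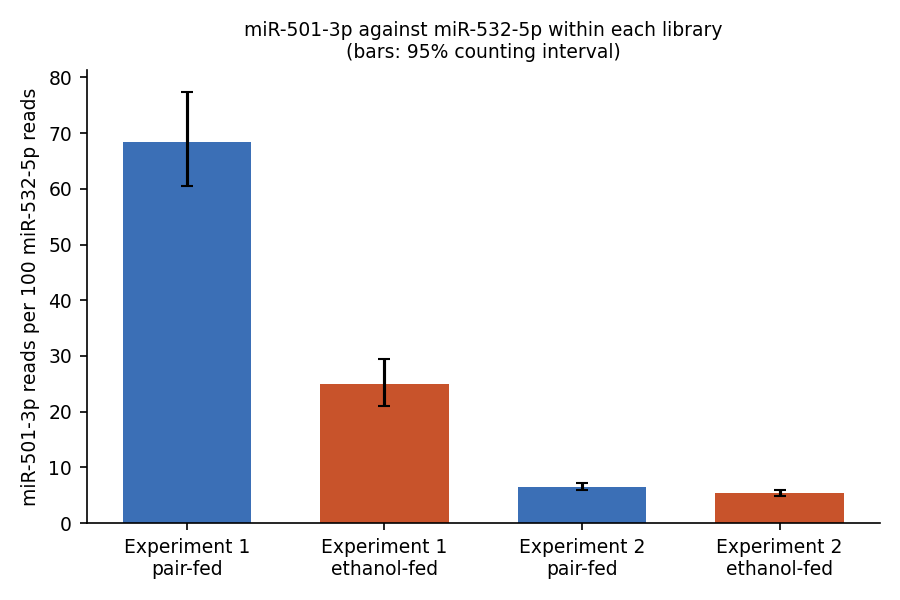
Reads of miR-501-3p per 100 reads of miR-532-5p (vertical axis, from 0) in each of the 4 libraries, pair-fed in blue and ethanol-fed in orange, with 95% counting intervals. The bars fall from 68.4 to 24.96 in experiment 1 and from 6.52 to 5.42 in experiment 2, with miR-501-3p chosen by its fall.

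The cluster also had another makeup in the 2 experiments, which were processed into tables of different form. From the pair-fed library of experiment 1 to that of experiment 2, miR-532-5p was 3.99-fold higher (3.67 to 4.33), miR-362-5p 16.5-fold (6.96 to 51.4) and miR-362-3p 19.1-fold (8.06 to 59.2). miR-501-3p went the other way, with a ratio of 0.380 (0.332 to 0.435). The ethanol-fed libraries gave 3.75-fold for miR-532-5p (3.47 to 4.06) and a ratio of 0.813 for miR-501-3p (0.676 to 0.982). Hepatocyte microRNAs differed in both directions. miR-122-5p was 61.6-fold higher with pair-feeding and 70.9-fold higher with ethanol in experiment 2, whereas miR-192-5p went from 388161 to 117318 RPM with pair-feeding and from 373090 to 109724 RPM with ethanol. Animals, library preparation and processing cannot be told apart as sources of these gaps.

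Few other microRNAs carry a seed of the cluster arms whose sequence was found. The seed of miR-532-5p was not searched, since its sequence was missing. Within the cluster, miR-500-5p has the seed of miR-362-5p. Outside it, miR-329-3p has the seed of miR-362-3p and miR-7061-3p that of miR-188-5p in the RefSeq table, and neither was listed in experiment 1.
mmu-miR-329-3p: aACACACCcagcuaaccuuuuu
In experiment 2, miR-329-3p was at 1.39 RPM with pair-feeding and listed at 0 with ethanol, against 22.8 and 15.9 RPM for miR-362-3p. miR-7061-3p was listed at 0 in both. Of the microRNAs in that table with the seed ACACACC, miR-362-3p was thus the more abundant in experiment 2.

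By distance in the plane of the 2 log2 ratios, the microRNAs outside the cluster most like miR-501-3p were miR-425-5p, miR-125b-2-3p and miR-1843b-3p, among 146 with at least 100 reads in each table. miR-425-5p went from 45.8 to 20.4 RPM in experiment 1 and from 75.3 to 67.8 RPM in experiment 2. miR-125b-2-3p went from 41.7 to 19.7 RPM and from 43.7 to 42.1 RPM. miR-1843b-3p went from 35.5 to 10.4 RPM and from 16.8 to 16.5 RPM. The likeness rests on 2 ratios from 4 libraries.

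Other X-linked microRNA clusters give the setting on the chromosome. Of 41 arms of Mir98, Mir221, Mir222, the Mir322 to Mir450 cluster, the Mir106a to Mir363 cluster, Mir374, Mir421, Mir652 and Mir361, 17 had at least 10 reads in experiment 1. A log2 ratio under 0 was found for 11 of the 17, with a median of -0.34, beside 51.3% of all microRNAs, while 3 were at least 2-fold lower (12.9% of all) and 1 at least 2-fold higher (12.6% of all). In experiment 2 it was 18 of 26, with a median of -0.16, beside 49.7% of all. There 2 were at least 2-fold lower (15.1% of all) and 0 at least 2-fold higher (10.7% of all). The 2-fold shares of all in experiment 2 include the microRNAs listed at 0 in 1 library. The largest of these groups, Mir322 to Mir450, had 4 of 7 under 0 in experiment 1 and 7 of 9 in experiment 2.

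As a check of the tissue, 5 hepatocyte microRNAs together held 46.3% of reads with pair-feeding and 45.3% with ethanol in experiment 1, and 51.0% and 47.9% in experiment 2. The sum of experiment 1 was mostly miR-192-5p, with 388161 and 373090 RPM, while miR-122-5p, the usual hepatocyte marker, had 2971 and 2210 RPM there and 182938 and 156660 RPM in experiment 2. In bulk liver, fewer cells of a type and less RNA per cell cannot be told apart. For the counts below, 51.3% of all microRNAs with at least 10 reads had a log2 ratio under 0 in experiment 1, and 49.7% in experiment 2. The white cell list was miR-223-3p, miR-142a-3p, miR-142a-5p, miR-150-5p and miR-155-5p. It was lower in 4 of 4 members with at least 10 reads in experiment 1, from 404 to 336 RPM in sum. In experiment 2 it was lower in 5 of 5, from 886 to 473 RPM. Its medians were -0.57 and -0.87, and miR-155-5p alone was at 0, with pair-feeding in experiment 1. The red cell list was higher in 4 of 4 members in experiment 1, from 11559 to 33915 RPM, and lower in 4 of 4 in experiment 2, from 1826 to 1152 RPM, with none at 0. Endothelial arms of miR-126a were higher in 2 of 2 in each experiment, at 3854 and 5142 RPM in sum and then 22335 and 26332 RPM. The mesenchymal list was higher in 3 of 4 members in experiment 1 (96518 and 96073 RPM in sum) and in 2 of 4 in experiment 2 (18978 and 24067 RPM). The epithelial list was higher in 2 of 4 tested members in experiment 1 (61.4 and 61.9 RPM), where miR-200c-3p was at 0 with pair-feeding, and in 5 of 5 in experiment 2 (519 and 887 RPM). Of the pancreas list, miR-375-3p alone could be tested in experiment 1 and was lower (85.1 and 48.5 RPM for the list). There miR-216b-5p was at 0 with pair-feeding, and miR-217-5p and miR-216a-5p were not listed. In experiment 2 it was higher in 4 of 4, from 5.92 to 113 RPM, with miR-216a-5p and miR-216b-5p at 0 with pair-feeding. The part of these lists in the values of the cluster was not tested.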

How the data were processed

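Liver small RNAs were size-selected by the authors on a polyacrylamide gel, amplified and sequenced. For experiment 1, the authors deposited unnormalized read counts per mature microRNA. The other table, experiment 2, was deposited as RPM, reads per 1000000 on microRNAs, with no value between 0 and 0.92. The table also holds the authors' log2 fold changes and p-values, which were not used. The submitters' processing notes name the genome build mm8, while alignment tool, annotation and read filters are not given in the sources used here. Coordinates here come from GRCm38. Columns were assigned to diets by their names, and 0 were left over.

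For experiment 2, 1 read was taken as the step in values under 60 RPM, on which 97.0% (pair-fed) and 96.6% (ethanol-fed) of them lay within 0.0051 RPM. A tolerance of 0.01 step is finer than the rounding of the values and could not decide whether whole reads were recovered. The Poisson and binomial intervals of experiment 2 treat the estimated reads as counts, so they are estimates too. Ratios were RPM ratios with exact conditional binomial intervals (95%), levels had exact Poisson intervals, and the log2 ratio added 1 read per library. With 1 library per condition in a table there is no test within a table. None was made across the tables, which were normalized separately and whose contrast chose the members. The members and lists were chosen with earlier results of these data known. The microRNAs named besides the cluster were those with a shared seed and the 3 nearest to miR-501-3p in the log2 ratios. Arms of X-linked genes that other loci also encode, such as let-7f-5p, were left out. The scripts were tested on simulated data. Intervals were computed with scipy 1.17.1 under Python 3.11.15, tables were read with pandas 2.3.3 and numpy 2.4.6, and figures were drawn with matplotlib 3.10.9.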

Additional observations from a re-analysis of the deposited data

How the results depend on the processing

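The settings tried were median-of-ratios size factors, a total without the most abundant microRNA, unscaled reads (experiment 1), a pseudocount of 0.1 read, no minimum, a minimum of 100 reads, zeros of experiment 2 at the lowest listed value, and miR-501-3p and miR-500-3p added together. Of 69 values of single members, 67 stayed within counting error (within 1 log2 unit for miR-188-5p, which has no interval) and none changed sign. miR-188-5p in experiment 2 moved from 4.0 to 7.24 with a pseudocount of 0.1 read and to 0.54 with zeros at the lowest listed value. Of 48 counts and cluster sums, 45 stayed within 1.5 times or counting error, the members under 1 in experiment 1 numbering 3 instead of 2 with no minimum. With a minimum of 100 reads, the members with a ratio under 1 in experiment 1 numbered 1 and those at least 2-fold higher in experiment 2 numbered 0. With zeros at the lowest listed value the latter number was also 0. The scalings moved the median log2 ratio of all tested microRNAs present in both libraries to between -0.06 and 0.03 in experiment 1. No paired analysis across the experiments was made. A fit with the experiment as a block would leave 1 residual degree of freedom and was not made, since the tables were normalized separately and the contrast chose the members. In experiment 1, members other than miR-532-5p and miR-501-3p had too few reads to show a change of the size seen for miR-501-3p with certainty, and more reads would not replace the missing animals.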
